A study of Arabidopsis thaliana with 24 samples.

Results

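SWEET proteins are membrane transporters that let sugars pass down their gradient, in either direction and without energy input. Expression of 6 SWEET genes was followed here by their probe sets, which are the groups of short oligonucleotides that measure 1 transcript on an Affymetrix ATH1 array of Arabidopsis thaliana. They are SWEET2 (AT3G14770, probe set 256548_at), SWEET4 (AT3G28007, 257271_at), SWEET11 (AT3G48740, 252327_at), SWEET13 (AT5G50800, 248467_at), SWEET14 (AT4G25010, 254090_at) and SWEET16 (AT3G16690, 258421_at). Each has 1 probe set that the platform annotation gives to that gene alone, so the 6 genes stand for 6 of the 17810 probe sets tested. The family list held 17 SWEET genes, of which 11 had such a probe set. The 6 were selected on values of these same arrays, since earlier results were known when they were put forward. Each of them was called different in 2 or 3 of the 8 comparisons of media or genotypes, whereas SWEET17 was called in 1 and SWEET1, SWEET6, SWEET10 and SWEET15 in 0. In those 8 comparisons the members' values are therefore a description, printed without p-values, and the counts of calls support nothing by themselves.

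The arrays measured total RNA from roots and from leaves of Col, the wild type, and of the double mutant rglg1 rglg2 in the same ecotype, called the mutant below. RGLG1 and RGLG2 are RING-domain ubiquitin ligases. The labels name no alleles, and the transcripts of these 2 genes were not analysed here. All plants grew at 21 °C in continuous light, were moved at 10 days of age to 1 of 2 media for 3 days, and were 13 days old at harvest. The +Fe medium held 40 µM FeEDTA. The -Fe medium instead held an iron chelator of the ferrozine type, a pyridyl diphenyl triazine sulfonate, at 100 µM. Tissue, genotype and medium gave 8 groups, each with 3 arrays labelled as biological replicates. Nothing in the labels says whether these came from separate cultures, so p-values measure the spread between these arrays.

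Plants make sucrose in leaf mesophyll, and SWEET transporters release it from phloem parenchyma cells before proton-coupled carriers load it into the phloem that feeds roots. SWEET11 does this together with SWEET12, at the plasma membrane. SWEET13 and SWEET14 belong to the same sucrose-transporting clade, can also move gibberellin, and act together in anthers. SWEET10, of that clade as well, is the immediate neighbour of SWEET13 on chromosome 5, with 0 annotated genes between them in TAIR10.1. SWEET2 and SWEET16 sit in the vacuolar membrane. SWEET2 moves hexoses into root vacuoles and limits the loss of sugar from roots, and SWEET16 moves glucose, fructose and sucrose. SWEET4 is a plasma membrane hexose transporter of veins and of the root stele.

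Values are log2 signals from which each probe set's median over the 24 arrays had been subtracted. A value of 0 is thus that gene's middle array, not absence, and the level of 1 gene cannot be set against that of another. Over all probe sets, Pearson's r between arrays of 1 group was 0.933 to 0.984 for roots, and 0.944 to 0.971 for leaves of Col. These values include the difference between organs. With each tissue's mean subtracted, r was 0.228 to 0.742 for roots and 0.474 to 0.768 for leaves of Col. In mutant roots on +Fe, pairs with replicate 3 gave 0.277 and 0.228, beside 0.693 for replicates 1 and 2. In Col roots, pairs with replicate 3 gave 0.287 to 0.442, beside 0.707 on +Fe and 0.507 on -Fe for replicates 1 and 2. The mutant leaf arrays numbered 3 stood furthest apart. On +Fe and -Fe, replicates 1 and 2 correlated at 0.967 and 0.956, but pairs with replicate 3 only at 0.852 to 0.905. With the tissue mean subtracted, replicates 1 and 2 correlated at 0.759 and 0.783, and pairs with replicate 3 at -0.029 to 0.015. The labels passed simple checks. The mean of 4 iron deficiency genes (BHLH101, IMA1, PYE and S8H) was -1.61 to -0.84 on +Fe arrays and 1.31 to 2.62 on -Fe arrays. All 4 were called higher without iron in roots of each genotype, but only 3 in leaves. S8H was the exception, with leaf group means of -0.10 to 0.04 on both media. Of 10 green tissue markers 5 were measured, and their mean was 2.02 to 2.60 in leaves and -3.19 to -2.14 in roots. EXPA7, a root hair expansin and the only measured root marker of 11, was 2.07 to 2.56 in roots and -3.20 to -2.07 in leaves.

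**Figure D1:**
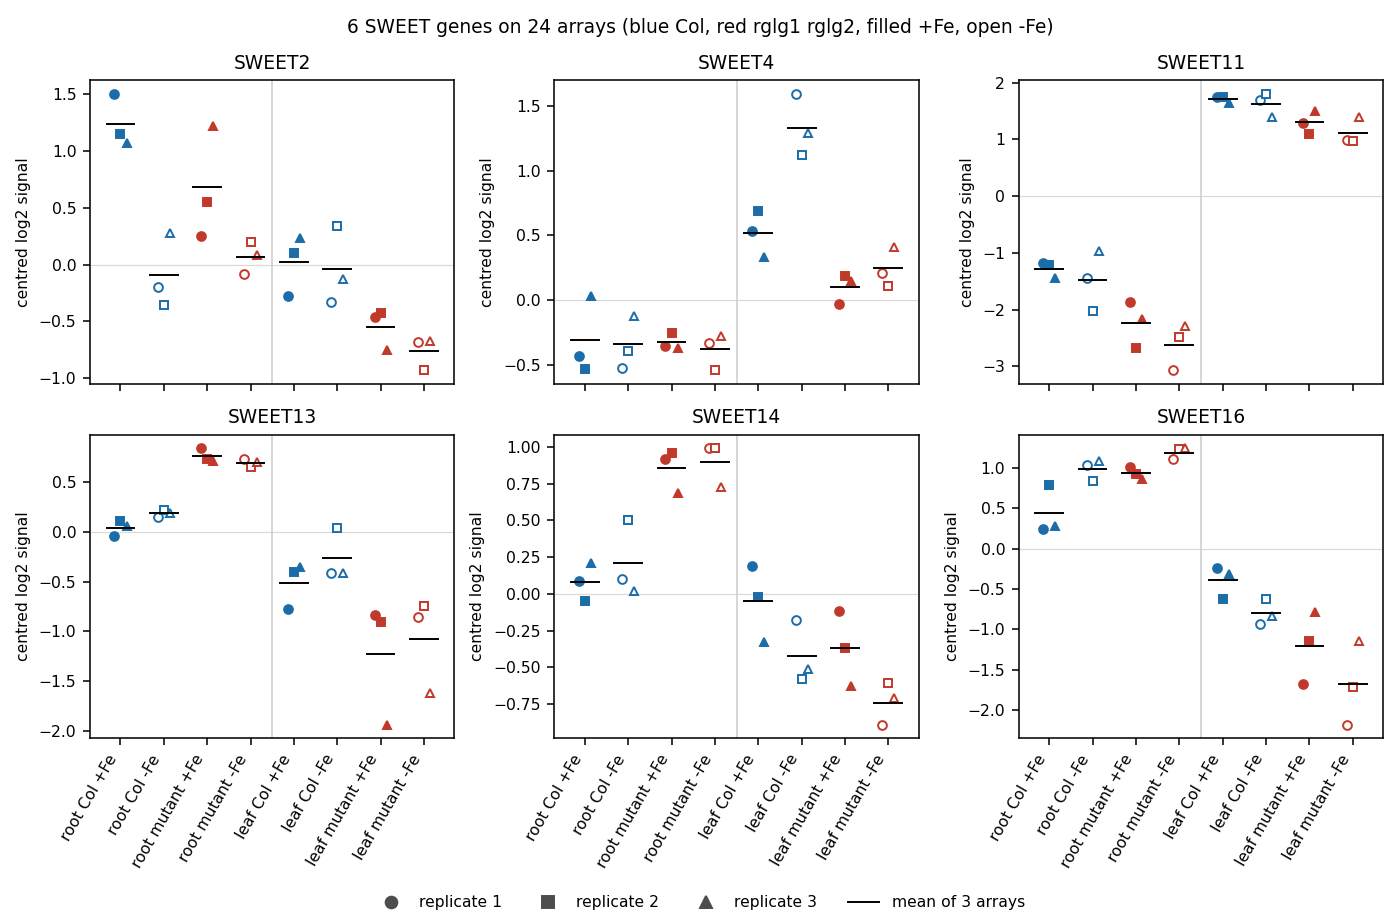
Centred log2 signal (vertical axes, 1 panel per gene, own scale) of the 6 SWEET genes on all 24 arrays, by group (horizontal axes). Blue is Col and red the mutant, filled +Fe and open -Fe, the symbol gives the replicate number and the black line the mean of 3 arrays. SWEET11 is high on all 12 leaf arrays, and SWEET13 and SWEET14 are highest on the 6 mutant root arrays.

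Roots and leaves were compared on +Fe medium, in each genotype, with all 24 arrays in 1 limma fit. The 6 genes did not share a tissue. SWEET11 and SWEET4 were higher in leaves, whereas SWEET2, SWEET13 and SWEET16 were higher in roots, as was SWEET14 in the mutant. In whole organs, fewer cells of a type and less RNA per cell cannot be told apart. In Col 5 of the 6 were called at an adjusted p under 0.05, against 70.6% of all probe sets, and in the mutant all 6 were called, against 67.8%. Of these, 2 were higher in leaves in each genotype, beside 32% of all probe sets in Col and 31.3% in the mutant. Lower in leaves were 3 members in Col, beside 38.6%, and 4 in the mutant, beside 36.5%. A difference between organs was thus common over the whole table.

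SWEET11, the phloem-loading sucrose exporter, had the largest tissue difference of the 6. Its 3 Col arrays on +Fe read 1.74, 1.75 and 1.64 in leaves and -1.18, -1.22 and -1.44 in roots. The mutant arrays read 1.29, 1.1 and 1.50 in leaves and -1.87, -2.68 and -2.16 in roots. No leaf array came near a root array. SWEET11 was 7.95-fold higher in Col leaves than in Col roots (log2 difference 2.99 ± 0.23 SE, limma adjusted p = 1.26e-10) and 11.6-fold higher in the mutant (3.53 ± 0.23, limma adjusted p = 7.58e-12).

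SWEET4 was also higher in leaves. Its Col arrays on +Fe read 0.53, 0.69 and 0.33 in leaves and -0.43, -0.53 and 0.03 in roots. The groups did not overlap, and the leaf level was 1.78-fold the root level (0.83 ± 0.15, limma adjusted p = 3.3e-05). In the mutant the leaf arrays read -0.03, 0.19 and 0.15 and the root arrays -0.35, -0.25 and -0.37. Here the difference was 1.34-fold (0.43 ± 0.15, limma adjusted p = 0.0141), and it missed the threshold without leaf mutant +Fe replicate 2 (0.38, limma adjusted p = 0.0507).

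On +Fe the vacuolar hexose carrier SWEET2 was higher in roots in both genotypes. Col +Fe arrays read 1.50, 1.15 and 1.07 in roots and -0.28, 0.10 and 0.23 in leaves. Mutant +Fe arrays read 0.25, 0.55 and 1.22 in roots and -0.46, -0.43 and -0.75 in leaves. SWEET2 was 2.33-fold lower in leaves in either genotype (log2 difference -1.22 ± 0.22 in each; limma adjusted p = 3.29e-05 in Col and 3.57e-05 in the mutant).

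SWEET13, SWEET14 and SWEET16 leaned to roots more in the mutant than in Col. For SWEET13 the log2 difference, leaf minus root, was -0.55 ± 0.23 in Col (limma adjusted p = 0.0353) and -1.99 ± 0.23 in the mutant (3.97-fold, limma adjusted p = 7.58e-08). The Col call was lost with quantile normalization (-0.41, adjusted p = 0.0788) and without root Col +Fe replicate 2 (0.085) or 3 (0.0716) or leaf Col +Fe replicate 1 (0.15). For SWEET14 the Col difference was -0.14 ± 0.16 (limma adjusted p = 0.442), and the mutant difference was 2.35-fold (-1.23 ± 0.16, limma adjusted p = 4.39e-07). SWEET16 was 1.78-fold lower in Col leaves (-0.83 ± 0.21, limma adjusted p = 0.00171) and 4.41-fold lower in mutant leaves (-2.14 ± 0.21, limma adjusted p = 1.04e-08). The tests of these changes between genotypes are given below, as the tissue by genotype interaction. The same +Fe arrays gave genotype differences on which members were selected, so the p-values above are not independent support for these changes.

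**Figure D2:**
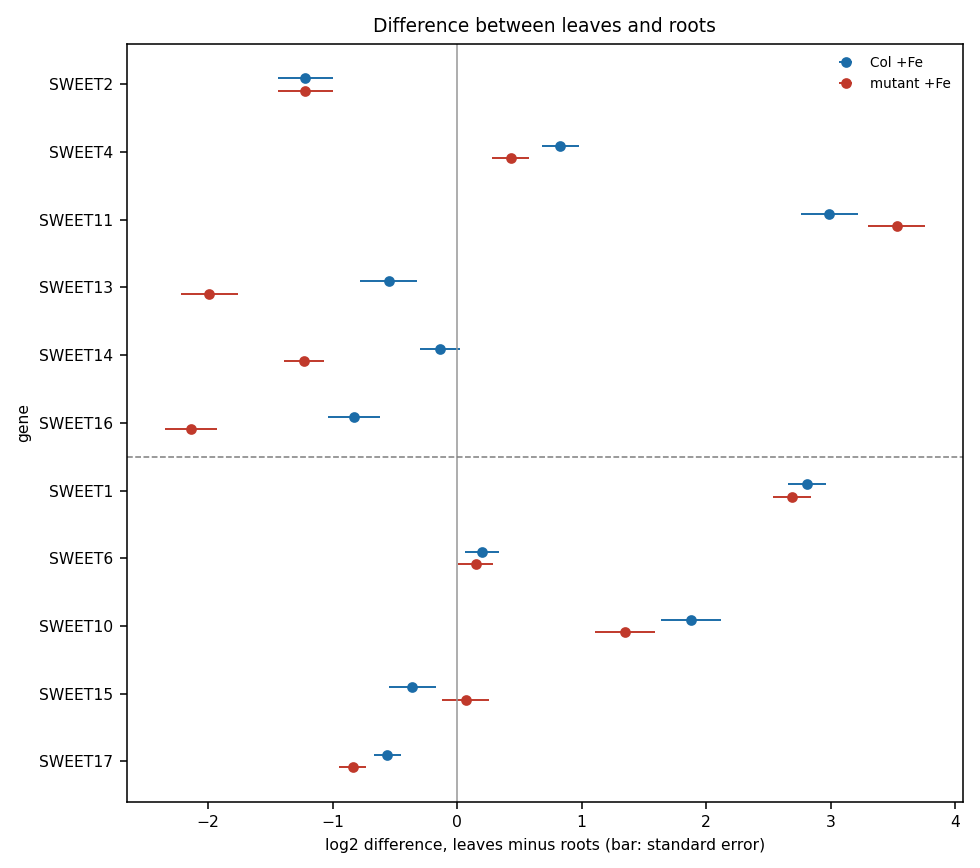
Log2 difference, leaves minus roots, on +Fe medium (horizontal axis) for the 6 SWEET genes (above the dashed line) and the other 5 measured SWEET genes (below it). Blue is Col, red the mutant, and bars are limma standard errors. SWEET13, SWEET14 and SWEET16 lie further to the left in the mutant than in Col.

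The response to iron deficiency was the difference between -Fe and +Fe arrays of 1 genotype and tissue, with each tissue fitted on its own 12 arrays. In Col roots SWEET2 was lower and SWEET16 higher without iron, which makes 2 of 6 members called, beside 5.17% of all probe sets. In Col leaves SWEET4 was higher, 1 of 6 beside 1.03%. In the mutant 0 of 6 were called in roots, beside 7.11% of all probe sets, and 0 of 6 in leaves, beside 0.427%. At an unadjusted limma p under 0.05 there was 1 member in mutant roots, where 4147 of 17810 probe sets were, and 0 in mutant leaves, where 1498 were.

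SWEET2 carried the largest iron difference among the members. In Col roots its arrays went from 1.50, 1.15 and 1.07 on +Fe to -0.20, -0.36 and 0.28 on -Fe. The groups were well apart, and the level without iron was 2.51-fold lower (-1.33 ± 0.21). In mutant roots the arrays read 0.25, 0.55 and 1.22 on +Fe and -0.08, 0.20 and 0.08 on -Fe, which was 1.53-fold lower and not called (-0.61 ± 0.21). Replicate 3 of the mutant on +Fe stood within the range of Col, and without it the mutant difference was -0.34. The mean of the 5 green tissue markers was also lower without iron. In Col roots this mean was -2.33 to -2.14 on +Fe and -3.19 to -2.74 on -Fe, and in mutant roots -2.27 to -2.23 and -3.06 to -2.87. The median difference of the 5 was -0.76 in roots of each genotype. Of these 5 markers 4 were called lower in either root response, and their part in the SWEET2 difference was not tested. In leaves SWEET2 differed by -0.05 ± 0.18 in Col and -0.21 ± 0.18 in the mutant.

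SWEET16, the vacuolar glucose, fructose and sucrose carrier, read 0.24, 0.79 and 0.28 in Col roots on +Fe and 1.03, 0.84 and 1.09 on -Fe. It was 1.47-fold higher without iron (0.55 ± 0.13), with +Fe replicate 2 only just below the lowest -Fe array. In mutant roots it read 1.01, 0.92 and 0.86 on +Fe, within the range of Col without iron, and 1.11, 1.23 and 1.24 on -Fe (0.26 ± 0.13, not called). In leaves it ran the other way without passing the test. Col leaves read -0.24, -0.62 and -0.31 on +Fe and -0.93, -0.63 and -0.84 on -Fe (-0.41 ± 0.26), and mutant leaves -1.68, -1.15 and -0.79 on +Fe and -2.18, -1.71 and -1.14 on -Fe (-0.47 ± 0.26). In the mutant each array without iron was below the array of the same number with iron, and the difference was called with array weights (-0.56). The Col root call of SWEET16 was lost without either of Col +Fe replicates 1 and 3 or -Fe replicates 1 and 3, at 0.46 to 0.53. It was also lost with only the 6 arrays compared (0.55).

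SWEET4, the plasma membrane hexose transporter, was the member called in Col leaves. Its arrays read 0.53, 0.69 and 0.33 on +Fe and 1.59, 1.12 and 1.29 on -Fe. All 3 arrays without iron were above all with iron, and the difference was 1.76-fold (0.81 ± 0.14). Leaving out Col +Fe replicate 1 or 3 or -Fe replicate 1 or 3 ended the call, at 0.69 to 0.83. Mutant leaves read -0.03, 0.19 and 0.15 on +Fe and 0.21, 0.11 and 0.41 on -Fe, groups that overlapped (0.14 ± 0.14). In roots SWEET4 stayed between -0.54 and 0.03 on all 12 arrays, and its iron differences were -0.03 ± 0.14 in Col and -0.06 ± 0.14 in the mutant.

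The sucrose exporters of the phloem clade gave no iron call. SWEET11 differed by -0.21 ± 0.25 in Col roots, -0.38 ± 0.25 in mutant roots, -0.08 ± 0.15 in Col leaves and -0.18 ± 0.15 in mutant leaves. SWEET13 differed by 0.15 ± 0.08 in Col roots and -0.07 ± 0.08 in mutant roots, the smallest standard errors of the 6 genes. In leaves its differences were 0.25 ± 0.30 and 0.15 ± 0.30. SWEET14 differed by 0.13 ± 0.13 and 0.05 ± 0.13 in roots and by -0.37 ± 0.17 and -0.36 ± 0.17 in leaves, in Col and the mutant respectively.

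**Figure D3:**
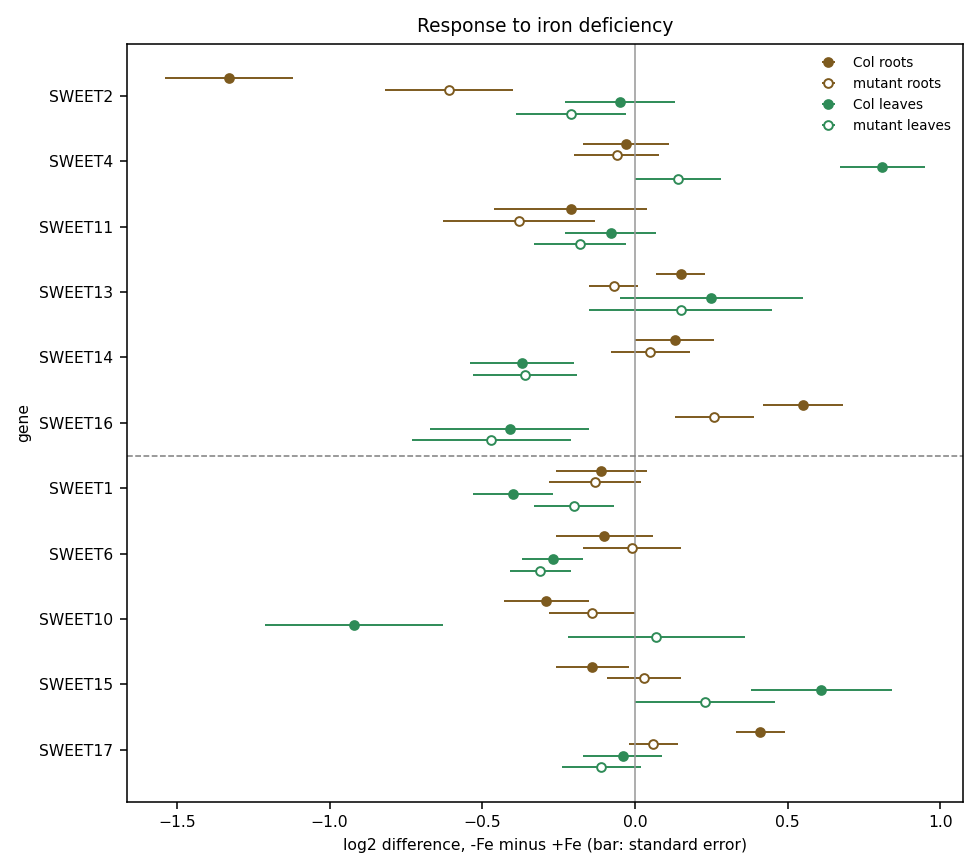
Log2 difference, -Fe minus +Fe (horizontal axis), for the 6 SWEET genes (above the dashed line) and the other 5 measured SWEET genes (below it). Brown is roots and green leaves, filled Col and open the mutant, and bars are limma standard errors. SWEET2 in Col roots lies at -1.33 and SWEET4 in Col leaves at 0.81.

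The genotypes were compared on each medium within each tissue, as mutant minus Col. In roots the sucrose clade split. SWEET13 and SWEET14 were higher in the mutant on both media, SWEET11 was lower on both, and SWEET16 was higher on +Fe. On +Fe 4 of 6 members were called, beside 10.7% of all probe sets: 3 were higher, beside 5.69%, and 1 lower, beside 5.05%. On -Fe 3 of 6 were called, beside 3.89%: 2 higher, beside 1.81%, and 1 lower, beside 2.08%. The choice of members used these contrasts, so nothing is read from the shares.

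SWEET13 separated the root genotypes most cleanly. On +Fe its Col arrays read -0.04, 0.11 and 0.06 and its mutant arrays 0.84, 0.73 and 0.71. On -Fe they read 0.15, 0.22 and 0.19 in Col and 0.73, 0.65 and 0.70 in the mutant. All 6 mutant arrays lay above all 6 Col arrays, with group SDs of 0.04 to 0.08. The mutant was 1.65-fold higher on +Fe (0.72 ± 0.08) and 1.42-fold higher on -Fe (0.51 ± 0.08).

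SWEET14 followed the same pattern. Col roots read 0.09, -0.05 and 0.21 on +Fe and 0.10, 0.50 and 0.02 on -Fe. Mutant roots read 0.92, 0.96 and 0.69 on +Fe and 0.99, 0.99 and 0.73 on -Fe. The mutant was again above Col on every array, by 1.71-fold on +Fe (0.77 ± 0.13) and 1.62-fold on -Fe (0.70 ± 0.13). The -Fe call was lost without mutant -Fe replicate 1 (0.65). SWEET13 and SWEET14 are related in sequence, and whether their probe sets also take up the other's transcript was not tested here.

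SWEET11 went the opposite way in roots. Col arrays read -1.18, -1.22 and -1.44 on +Fe and -1.45, -2.03 and -0.97 on -Fe. The mutant arrays read -1.87, -2.68 and -2.16 on +Fe and -3.07, -2.49 and -2.29 on -Fe. On each medium the mutant lay below Col without overlap, 1.94-fold on +Fe (-0.96 ± 0.25) and 2.19-fold on -Fe (-1.13 ± 0.25). The spread was wide: the +Fe call was lost without Col +Fe replicate 1 or 2 or mutant +Fe replicate 2 (-0.93 to -0.74), and the -Fe call without Col -Fe replicate 1 or 3 or mutant -Fe replicate 1 or 2 (-1.20 to -0.87).

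SWEET16 was 1.41-fold higher in mutant roots on +Fe (0.49 ± 0.13), where all 3 mutant arrays (1.01, 0.92 and 0.86) exceeded all 3 Col arrays (0.24, 0.79 and 0.28). This call was lost without Col +Fe replicate 1 or 3 or mutant +Fe replicate 1 or 2, at 0.40 to 0.50. It was also lost with only the 6 arrays compared (0.49). On -Fe the groups also did not overlap, but the difference of 0.20 ± 0.13 was not called. SWEET2 differed by -0.56 ± 0.21 on +Fe, not called, and by 0.16 ± 0.21 on -Fe. Without mutant +Fe replicate 3, the SWEET2 difference on +Fe was called, at -0.84. SWEET4 differed by -0.01 ± 0.14 and -0.04 ± 0.14.

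A pair of measures other than the SWEET genes is given beside the root genotype differences. OPS, a protophloem gene and the only measured phloem marker of 6, read 0.00 to 0.31 in Col and 0.40 to 0.56 in the mutant on +Fe, and -0.03 to 1.42 and 0.55 to 0.70 on -Fe. Its genotype difference was not called (0.36 ± 0.27, limma adjusted p = 0.413 on +Fe). The difference between 5' and 3' probe sets of Arabidopsis control transcripts, a sign of RNA integrity, was 0.13 to 0.33 in Col and -0.10 to 0.18 in the mutant on +Fe, and 0.16 to 0.43 and 0.23 to 0.29 on -Fe. The part of either in the SWEET differences was not tested. None of the 5 green tissue markers was called between genotypes in roots, where 1 had an unadjusted limma p under 0.05 on +Fe and 0 on -Fe.

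In leaves all 6 SWEET genes had lower means in the mutant, on both media. On -Fe 4 of 6 were called, all lower: SWEET4, SWEET2, SWEET16 and SWEET11. The shares over all probe sets were 15.9% called and 9.77% called lower. On +Fe 0 of 6 were called by limma, beside 14.4% of all probe sets, although 5 had an unadjusted p under 0.05 (all but SWEET14), as did 5651 of 17810 probe sets. With array weights 5 were called (all but SWEET13), as were 8248 of all probe sets. The members' median difference was -0.49 on +Fe and -0.77 on -Fe, where the median over all probe sets was -0.01 and -0.04. The other 5 measured SWEET genes had medians of -0.13 on +Fe and -0.09 on -Fe. On either medium 5 of 6 had all mutant arrays below all Col arrays, beside 18.3% of all probe sets on +Fe and 21.3% on -Fe. The exceptions were SWEET14 on +Fe and SWEET11 on -Fe. The choice of members used these contrasts too, so nothing is read from these counts, shares and medians.

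On -Fe SWEET4 had the largest leaf difference of the 6. Its Col arrays read 1.59, 1.12 and 1.29 and its mutant arrays 0.21, 0.11 and 0.41, a gap wider than the spread within either group. The mutant was 2.13-fold lower on -Fe (-1.09 ± 0.14). On +Fe the difference was -0.42 ± 0.14, from 0.53, 0.69 and 0.33 in Col to -0.03, 0.19 and 0.15 in the mutant.

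SWEET2 read -0.33, 0.34 and -0.13 in Col leaves on -Fe and -0.68, -0.93 and -0.67 in mutant leaves. It was 1.65-fold lower in the mutant (-0.72 ± 0.18), and on +Fe it differed by -0.56 ± 0.18. The -Fe call was lost without Col -Fe replicate 2 or mutant -Fe replicate 1 or 2 (-0.76 to -0.53). It was also lost with only the 6 arrays compared (-0.72).

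SWEET16 read -0.93, -0.63 and -0.84 in Col leaves on -Fe and -2.18, -1.71 and -1.14 in mutant leaves. The mutant was 1.84-fold lower (-0.88 ± 0.26). The call was lost when any 1 Col -Fe array or mutant -Fe replicate 1 or 2 was left out (-0.95 to -0.63). It was also lost with only the 6 arrays compared (-0.88). On +Fe the mutant arrays read -1.68, -1.15 and -0.79, all below the Col arrays at -0.24, -0.62 and -0.31 (-0.82 ± 0.26). On both media mutant replicate 3 lay closest to Col.

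SWEET11 read 1.70, 1.80 and 1.39 in Col leaves on -Fe and 0.99, 0.97 and 1.39 in mutant leaves, so that the groups touched at replicate 3. The difference was 1.43-fold (-0.51 ± 0.15). It was not called after quantile normalization (-0.41), with the replicate block (-0.51) or with only the 6 arrays compared (-0.51). Nor was it called without Col -Fe replicate 1 or 2 or mutant -Fe replicate 1 or 2 (-0.48 to -0.43). On +Fe it was -0.41 ± 0.15.

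SWEET13 was low in mutant leaves, and lowest on the arrays numbered 3. On +Fe it read -0.78, -0.40 and -0.35 in Col and -0.84, -0.91 and -1.94 in the mutant (-0.72 ± 0.30). On -Fe it read -0.41, 0.04 and -0.41 in Col and -0.86, -0.75 and -1.62 in the mutant (-0.82 ± 0.30). SWEET14 differed least in leaves, by -0.32 ± 0.17 on +Fe and -0.31 ± 0.17 on -Fe.

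The mutant leaf arrays numbered 3 moved the members in different directions. Without both of them, an alternative added after seeing the data, the genotype difference on +Fe was -0.46 for SWEET2, -0.44 for SWEET4, -0.51 for SWEET11, -0.37 for SWEET13, -0.19 for SWEET14 and -1.03 for SWEET16, and SWEET11 and SWEET16 were called, as they were without the +Fe array alone. On -Fe it was -0.77 for SWEET2, -1.17 for SWEET4, -0.65 for SWEET11, -0.55 for SWEET13, -0.33 for SWEET14 and -1.15 for SWEET16, with all but SWEET14 called. SWEET11 and SWEET16 thus differed more and SWEET13 less without these arrays, and all 6 remained below 0 on both media. The control probe sets' 5' minus 3' difference was 0.08 to 0.10 in Col and -0.32 to -0.04 in mutant leaves on -Fe, and -0.04 to 0.13 and -0.07 to 0.26 on +Fe. The mean of the green tissue markers was 2.57 to 2.60 in Col and 2.46 to 2.51 in mutant leaves on +Fe, and 2.16 to 2.29 and 2.02 to 2.43 on -Fe. OPS differed by 0.16 ± 0.18 (limma adjusted p = 0.564) and 0.44 ± 0.18 (0.11). The part of these measures in the leaf differences was not tested.

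**Figure D4:**
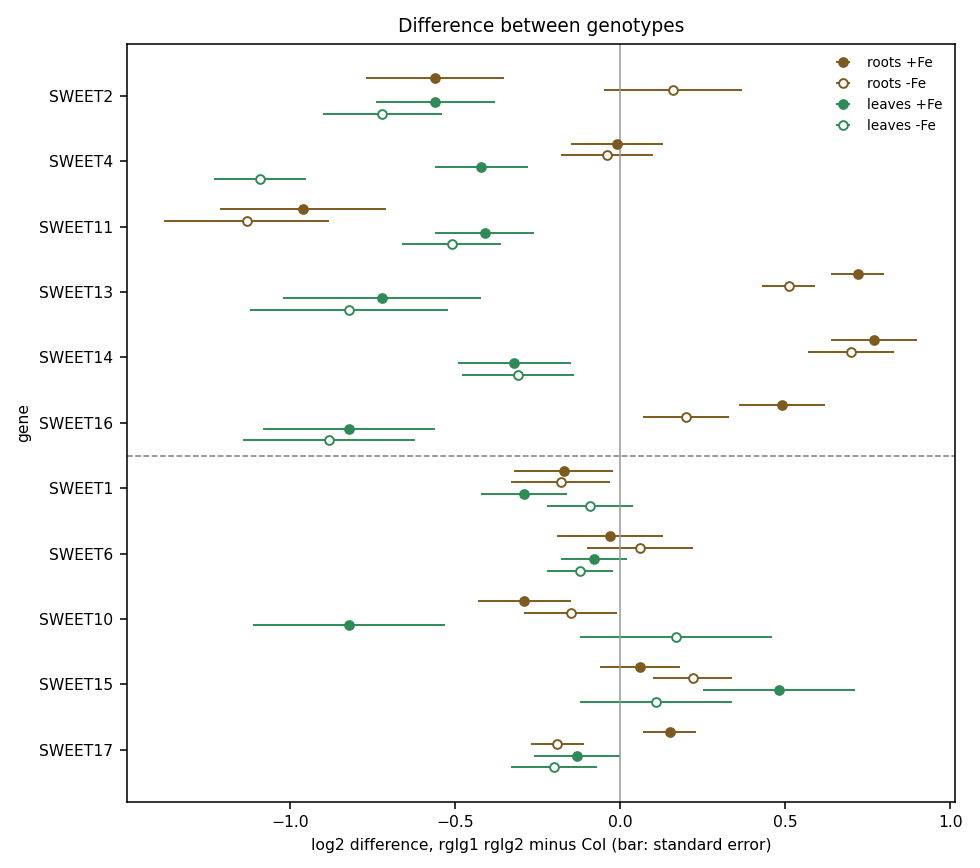
Log2 difference, mutant minus Col (horizontal axis), for the 6 SWEET genes (above the dashed line) and the other 5 measured SWEET genes (below it). Brown is roots and green leaves, filled +Fe and open -Fe, and bars are limma standard errors. All leaf points of the 6 genes lie left of 0, whereas SWEET13, SWEET14 and SWEET16 lie right of 0 in roots.

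Whether the genotype difference itself differed between leaves and roots was tested as an interaction, chosen after seeing the data. This interaction and those with iron are built from the contrasts on which the members were selected, so their p-values are not independent support. On +Fe 3 of 6 members were called, all lower in leaves relative to roots, beside 14.1% of all probe sets called and 7.51% called lower. These were SWEET13 (-1.44 ± 0.32, limma adjusted p = 0.00658), SWEET14 (-1.09 ± 0.22, limma adjusted p = 0.00367) and SWEET16 (-1.31 ± 0.30, limma adjusted p = 0.00826). On -Fe the same 3 genes and SWEET4 were called, 4 of 6, beside 11% called and 6.43% called lower. The values were -1.32 ± 0.32 for SWEET13 (limma adjusted p = 0.0133), -1.01 ± 0.22 for SWEET14 (0.00735), -1.08 ± 0.30 for SWEET16 (0.0272) and -1.05 ± 0.21 for SWEET4 (0.00367). SWEET13 and SWEET14 kept both calls under every alternative run, as did SWEET16 on +Fe and SWEET4 on -Fe. The SWEET16 call on -Fe was lost without root Col replicate 1 or 2, root mutant replicate 2 or 3, leaf Col replicate 2 or leaf mutant replicate 1 or 2 of that medium (-1.11 to -0.83). It was also lost without both mutant root arrays numbered 3 (-1.06). SWEET11, lower in the mutant in both organs, gave 0.54 ± 0.33 (limma adjusted p = 0.269) and 0.62 ± 0.33 (0.224). SWEET2 gave 0.00 ± 0.31 (0.999) on +Fe and -0.88 ± 0.31 (0.0671) on -Fe, where it was called without root Col replicate 3 (-1.07), leaf Col replicate 1 (-1.02) or both mutant leaf arrays numbered 3 (-0.92). Array weights added calls for SWEET2 on -Fe (-1.04, limma adjusted p = 0.00455) and SWEET4 on +Fe (-0.47, limma adjusted p = 0.025), and moved SWEET2 on +Fe to 0.48 without a call.

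The iron response was compared between genotypes in the same way. In roots 0 of 6 members were called by limma, beside 0.0168% of all probe sets, which is 3 probe sets, and 1 member had an unadjusted p under 0.05. That was SWEET2, with a mutant response 0.72 ± 0.30 above that of Col (limma adjusted p = 0.617). With array weights the SWEET2 value was 1.17 (limma adjusted p = 0.0334). In leaves 0 of 6 members and 0% of all probe sets were called, although 1 member and 910 probe sets had an unadjusted p under 0.05. The member was SWEET4 (-0.67 ± 0.20, limma adjusted p = 0.936). Over all probe sets the array weights gave 5 calls in leaves.

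Between tissues, the iron response of Col differed for 2 of 6 members, beside 1.75% of all probe sets. The SWEET2 response was higher in leaves than in roots by 1.28 ± 0.31 (limma adjusted p = 0.0324), and that of SWEET4 by 0.85 ± 0.21 (limma adjusted p = 0.0373). Both calls were close to the threshold. That of SWEET2 was lost without root Col replicate 1 or 2 or leaf Col replicate 2 on either medium, leaf Col +Fe replicate 1 or leaf Col -Fe replicate 3 (1.08 to 1.32). That of SWEET4 was lost without root Col +Fe replicate 3, root Col -Fe replicate 1 or 2, or leaf Col replicate 1 or 3 on either medium (0.68 to 0.87). It was also lost with quantile normalization (0.73) and without both mutant root arrays numbered 3 (0.85). SWEET16 gave -0.96 ± 0.30 (limma adjusted p = 0.147), with all root arrays without iron above those with iron and all leaf arrays below. In the mutant 0 of 6 were called, beside 1.85%, with 1 member (SWEET16, -0.73 ± 0.30, limma adjusted p = 0.221) at an unadjusted p under 0.05.

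The order of the 8 groups differed from gene to gene. SWEET11 spanned the widest range of group means, 4.33 on the log2 scale, from 1.71 in Col leaves on +Fe to -2.62 in mutant roots on -Fe. All leaf groups stood above all root groups, and within each organ neighbouring groups overlapped. SWEET16 spanned 2.87, from 1.19 ± 0.07 (SD, n = 3) in mutant roots on -Fe to -1.68 ± 0.52 in mutant leaves on -Fe. SWEET2 spanned 2.00, from 1.24 ± 0.23 in Col roots on +Fe, which overlapped mutant roots on +Fe at 0.68 ± 0.50, to -0.76 ± 0.15 in mutant leaves on -Fe. Between these ends, mutant roots on -Fe, both Col leaf groups and Col roots on -Fe overlapped at means of -0.09 to 0.07.

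SWEET13 spanned 1.99. Its mutant roots came first (0.76 ± 0.07 on +Fe and 0.69 ± 0.04 on -Fe, which overlapped), then Col roots on -Fe (0.19 ± 0.04) and on +Fe (0.04 ± 0.08), which did not overlap each other, then the leaf groups down to -1.23 ± 0.61 in the mutant on +Fe. SWEET4 spanned 1.72, and Col leaves on -Fe (1.33 ± 0.23) stood clear of Col leaves on +Fe (0.52 ± 0.18). The next group, mutant leaves on -Fe (0.25 ± 0.15), overlapped the latter, and the 4 root groups lay together at -0.38 to -0.31. SWEET14 spanned 1.64, the narrowest of the 6. Its 2 mutant root groups (0.90 ± 0.15 and 0.86 ± 0.15) stood clear of the rest, and its lowest group, mutant leaves on -Fe (-0.74 ± 0.14), lay below Col leaves on -Fe but overlapped mutant leaves on +Fe.

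The other 5 measured SWEET genes show what the choice left out. SWEET17, the vacuolar fructose carrier closest in kind to SWEET16, was the nearest to the members. It read 0.35, 0.16 and 0.16 in Col roots on +Fe and 0.59, 0.63 and 0.67 on -Fe, an increase of 0.41 ± 0.08 (limma adjusted p = 0.00751). In mutant roots it read 0.39, 0.39 and 0.35, then 0.40, 0.45 and 0.48, a difference of 0.06 ± 0.08. The mutant response differed from that of Col by -0.34 ± 0.12, which was not called (limma adjusted p = 0.578). SWEET1, a plasma membrane glucose transporter, had a leaf excess like that of SWEET11: 2.81 ± 0.15 in Col (limma adjusted p = 1.53e-13). SWEET10 was 3.68-fold higher in Col leaves than in Col roots (1.88 ± 0.24, limma adjusted p = 4.71e-07), and its 3 Col leaf arrays on +Fe read 1.36, 1.21 and 2.03 against 0.63, 0.29 and 0.91 on -Fe (-0.92 ± 0.29, not called). SWEET10 was thus higher in leaves than in roots, and its neighbour SWEET13 was higher in mutant roots than in any other group. In leaves on +Fe, SWEET10 (-0.82 ± 0.29) and SWEET1 (-0.29 ± 0.13) also had all mutant arrays below all Col arrays, although neither was called (limma adjusted p = 0.0785 and 0.163). A lower mean in mutant leaves was thus not limited to the 6. SWEET6 (-0.08 and -0.12) and SWEET17 (-0.13 and -0.20) had one on +Fe and -Fe, and SWEET1 had one on -Fe too (-0.09). The other way, SWEET15 was higher in mutant leaves on +Fe and -Fe (0.48 and 0.11), and SWEET10 on -Fe (0.17). None of these was called.

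SWEET15, a sucrose transporter of senescing leaves and seeds that the platform names SAG29, read -0.31, -0.48 and -0.40 in Col leaves on +Fe and 0.20, 0.23 and 0.20 on -Fe. These groups were well apart, but the difference of 0.61 ± 0.23 was not called, and mutant leaves were scattered from -0.37 to 0.62. SWEET6 varied least, with group means within 0.39 of each other. Neither SWEET6 (0.20 ± 0.14, limma adjusted p = 0.212) nor SWEET15 (-0.36 ± 0.19, limma adjusted p = 0.101) was called between Col leaves and roots.

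**Figure D5:**
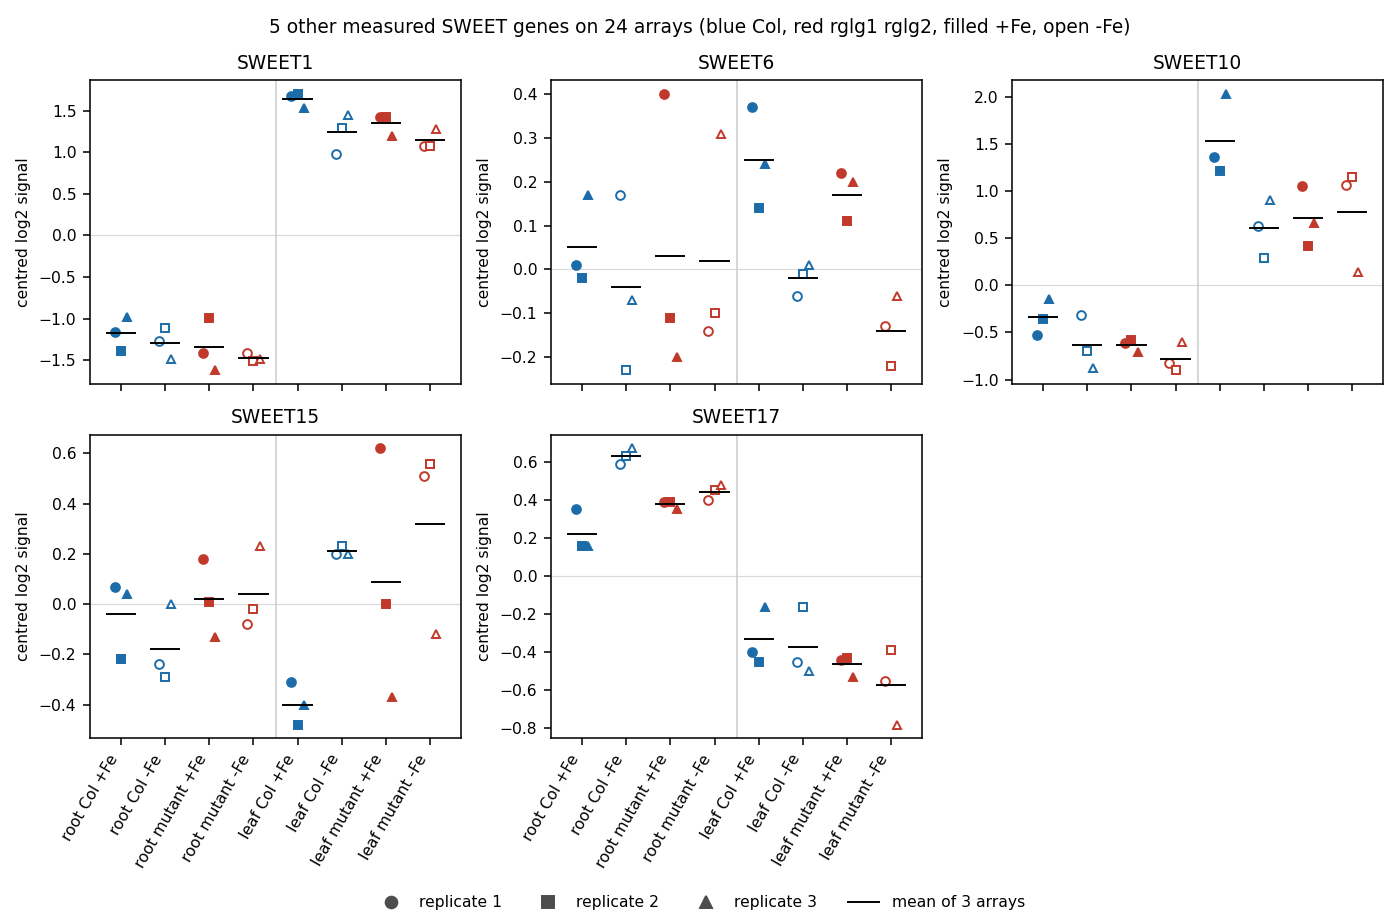
Centred log2 signal (vertical axes, 1 panel per gene, own scale) of the other 5 measured SWEET genes on all 24 arrays, by group (horizontal axes). Symbols are as in the plot of the 6 genes: blue Col, red mutant, filled +Fe, open -Fe, black line the mean of 3 arrays. SWEET1 and SWEET10 are high in leaves, and SWEET17 is high in roots.

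Sugar carriers of other families and enzymes of sucrose metabolism were followed from 2 lists. The transport list held 34 sucrose and hexose carriers, of which 9 were measured: STP3, STP5, STP8, STP10, TST1, TST2, TST3, SFP1 and SFP2. The proton-coupled sucrose loaders were not among them. None of the 9 was called in any iron response. At an unadjusted limma p under 0.05 there were 1 in Col roots, 0 in mutant roots, 0 in Col leaves and 2 in mutant leaves. Of 24 genes of sucrose metabolism 4 were measured, and VI1, a vacuolar invertase that splits sucrose inside the vacuole, was the only one called. It fell by 0.37 ± 0.09 in Col roots without iron (limma adjusted p = 0.0335).

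Between genotypes, the transport list gave 0 higher and 1 lower of 9 in roots on +Fe, SFP1 of the ERD6-like carriers (-0.42 ± 0.13, limma adjusted p = 0.0489), and 0 of 9 on -Fe. In leaves STP3, a proton-coupled hexose importer, was higher in the mutant on +Fe (0.79 ± 0.13, limma adjusted p = 0.00359) and on -Fe (0.54 ± 0.13, 0.0187), opposite in sign to all 6 SWEET genes there. SFP2 was lower in mutant leaves on -Fe (-0.83 ± 0.19, limma adjusted p = 0.015). The median of the 9 in leaves was -0.25 on +Fe and -0.19 on -Fe. CWINV6, of the cell wall invertase family, was higher in mutant roots on +Fe (0.61 ± 0.17, limma adjusted p = 0.0347) and -Fe (0.64 ± 0.17, 0.0496) and in mutant leaves on +Fe (1.48 ± 0.40, limma adjusted p = 0.031). Its leaf difference on -Fe was 1.24 ± 0.40 (limma adjusted p = 0.0533). The mutant leaf arrays numbered 3 stood apart here too, at -0.92 beside 0.54 and 0.38 on +Fe and at -0.64 beside 0.53 and 0.49 on -Fe.

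The probe sets whose pattern was most like that of each member were ranked by Pearson's r over the 24 arrays after each tissue's mean was subtracted, which leaves differences of genotype, medium and replicate. The arrays share their groups, so r is a description. SWEET2 was most like TROL, a thylakoid rhodanese-like protein (r = 0.87), AT1G73750 (0.87) and ATPC1, the gamma subunit of the chloroplast ATP synthase (0.84). SWEET4 was most like AT2G39870 (0.87), AT1G21830 (0.86) and AT5G57760 (0.86), and SWEET16 like AT2G34060, AT1G73090 and AT5G66440, each at 0.86. In the sucrose clade the highest values were those of SWEET11 with AT5G67430 (0.84), SWEET13 with AT4G02850 (0.85) and SWEET14 with AT5G52710 (0.82). Within roots and within leaves, r was 0.93 and 0.47 for SWEET11 with AT5G67430, and 0.93 and 0.62 for SWEET14 with AT5G52710. It was 0.54 and 0.92 for SWEET4 with AT2G39870, but more even for SWEET13 with AT4G02850 (0.97 and 0.82) and SWEET2 with TROL (0.90 and 0.83). No SWEET gene was among the 3 nearest of another.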

How the data were processed

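The deposited table holds log2 signals per probe set for 24 ATH1 arrays. RMA, without a version, is named in the submitters' processing notes. In the deposited values every probe set has a median of 0 (within 5e-07) over the 24 arrays, so they are centred, and they run from -5.76 to 7.86. Array medians lay between -0.136 and 0.049. When the centring was done, and how the 17854 probe sets were chosen, is not given in the sources used here. For arrays, their number limits the precision.

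From these values 44 control probe sets were left out and 17810 tested. The platform annotation names 1 gene for 9869 of them, several for 353 and none for 7588, and 9822 matched the TAIR10.1 reference, used for names only. Of the columns, 0 could not be matched to a sample. SWEET15 carries the symbol of the family list.

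The lmFit and eBayes functions of limma 3.58.1 (R 4.3.3) were used with 1 mean per group, each tissue on its 12 arrays (8 residual degrees of freedom) and comparisons across tissues on all 24. All tests were two-sided, with Benjamini-Hochberg adjustment over the 17810 probe sets, and called means an adjusted p under 0.05. Errors are limma standard errors beside differences and SDs beside group means. The code was tested on simulated data. Alternatives were a replicate block, quantile normalization, only the 6 arrays compared, array weights and leaving out each array. By the rule that every same-numbered pair's deviations correlate above 0.1, replicate numbers paired the mutant leaf arrays across media (0.39, 0.44 and 0.60) and no other groups compared. Col leaves missed the rule at replicate 2 only (0.34, 0.05 and 0.20). The main fit held no block, so any pairing of leaf arrays was left out of it. Array pairs numbered 3 were left out, and the tissue by genotype interaction was added, after seeing the data. Members and gene lists were chosen with earlier results of these data known. Genes named are the 6 members, the other measured genes of the lists where called or needed, and for each member the probe sets most like it.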

Additional observations from a re-analysis of the deposited data

Results flagged for a closer look

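Listed here are the members' called interactions, in which the effect of 1 factor was compared between roots and leaves (limma, adjusted over 17810 probe sets). They are built from the comparisons on which the genes were selected, so their p-values are not independent support.

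For the iron response of Col, leaves minus roots, SWEET2 gave 1.28 ± 0.31 (adjusted p = 0.0324) and SWEET4 gave 0.85 ± 0.21 (adjusted p = 0.0373). For the genotype difference on +Fe, leaves minus roots, SWEET13 gave -1.44 ± 0.32 (adjusted p = 0.00658), SWEET14 -1.09 ± 0.22 (0.00367) and SWEET16 -1.31 ± 0.30 (0.00826). On -Fe SWEET4 gave -1.05 ± 0.21 (adjusted p = 0.00367), SWEET13 -1.32 ± 0.32 (0.0133), SWEET14 -1.01 ± 0.22 (0.00735) and SWEET16 -1.08 ± 0.30 (0.0272).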

How the results depend on the processing

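No called member value changed sign under any alternative. Of 1296 values recomputed, 1196 stayed on their side of the threshold and, where not called, within a set bound. The bound was 1 SD for a difference between 2 groups, and wider for interactions, in proportion to the standard error. A further 69 lost the call, 27 gained one and 4 without a call moved by more than the bound. Of 34 called values 20 kept the call throughout, most of them differences between leaves and roots or interactions. Among iron responses only SWEET2 in Col roots kept it (-1.52 to -1.2). Among genotype differences SWEET13 kept it in roots (0.68 to 0.79 on +Fe, 0.49 to 0.54 on -Fe). SWEET14 in roots on +Fe (0.7 to 0.85) and SWEET4 in leaves on -Fe (-1.19 to -0.96) kept it too. Every other iron or genotype call was lost under at least 1 alternative. The count of members called moved as follows. Iron in Col roots went from 2 to 1 with only the 6 arrays compared, and lay between 1 and 2 when 1 array was left out. Iron in Col leaves (1) lay between 0 and 1 when 1 array was left out, and in mutant leaves 0 became 1 with array weights. The genotype difference in roots lay between 2 and 5 on +Fe (4 with all arrays) and between 1 and 3 on -Fe (3 with all arrays) when 1 array was left out. In leaves on +Fe 0 became 1 with the replicate block, 1 with only the 6 arrays, 5 with array weights, 2 without both mutant leaf arrays numbered 3, and 0 to 2 without 1 array. On -Fe 4 became 1 with only the 6 arrays and 1 to 4 without 1 array. The genotype by iron count in roots and the tissue by iron count in the mutant each went from 0 to 1 with array weights. The tissue by iron count in Col went from 2 to 1 with quantile normalization, 1 without both mutant root arrays numbered 3, and 0 to 2 without 1 array. Some alternatives hold fewer arrays, and the causes of these moves were not tested. Replicate numbers paired only the mutant leaf arrays by the rule used, and there a block within each genotype left the iron call count of the members at 0. Over all groups, same-numbered deviations of 1 genotype correlated at 0.05 to 0.6 in leaves and -0.08 to 0.42 in roots, and 11 of 12 leaf but 5 of 12 root arrays were most like their own number. With the replicate block, SWEET16 in leaves on +Fe was called (-0.82), and in leaves on -Fe SWEET13 was called (-0.82) and SWEET11 was not (-0.51). With the block within each genotype, the tissue by iron interaction of SWEET16 in Col was called (-0.96, adjusted p = 0.0204). The totals called over all probe sets moved with array weights from 2557 to 8248 for the genotype in leaves on +Fe, 2840 to 6628 on -Fe, 1913 to 5634 in roots on +Fe, 693 to 1921 on -Fe, 921 to 1578 for iron in Col roots, 1266 to 5097 in mutant roots, 184 to 766 in Col leaves and 76 to 1543 in mutant leaves. With array weights the tissue by genotype totals went from 2519 to 7885 on +Fe and 1960 to 5553 on -Fe, the tissue by iron totals from 311 to 936 in Col and 330 to 4333 in the mutant, and the genotype by iron total in roots from 3 to 393. With only the 6 arrays compared the totals were 602 for iron in Col roots, 319 in Col leaves and 38 in mutant leaves, and for the genotype 812 in roots on +Fe, 1106 on -Fe and 1576 in leaves on -Fe. Without both mutant leaf arrays numbered 3, the genotype totals in leaves were 5670 on +Fe and 5751 on -Fe, and iron in Col leaves gave 565. Without both mutant root arrays numbered 3, the genotype totals in roots were 3109 and 439, and iron in mutant roots gave 1978. A replicate block within each genotype gave 539 calls for iron in Col leaves. When 1 array was left out, the totals for iron lay between 612 and 1108 in Col roots, 592 and 3315 in mutant roots, 90 and 163 in Col leaves and 50 and 166 in mutant leaves. Those for the genotype lay between 728 and 3758 in roots on +Fe, 257 and 502 on -Fe, 925 and 3866 in leaves on +Fe, and 1118 and 4772 on -Fe. Those for the interactions lay between 0 and 387 for genotype by iron in roots, 204 and 309 for tissue by iron in Col, 160 and 1255 in the mutant, 1412 and 3795 for tissue by genotype on +Fe, and 1003 and 3732 on -Fe.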
